A study of Mus musculus with 18 samples.

Results

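Immediate early genes are genes whose transcription starts within minutes of a stimulus without new protein synthesis. The set described here holds 35 genes that rise on stimulation or cell isolation, whether or not each meets this definition. It was taken by symbol from the deposited count table, which holds 19094 protein-coding genes. It covers 9 AP-1 and related bZIP genes, 6 EGR and NR4A genes, 5 genes made up of the KLF family and Myc, 4 genes of the IER and CSRNP kind, 3 growth arrest genes and 8 feedback genes. All 35 had a row in the table and all 35 passed the filter on low counts in each of the 4 main comparisons.

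The heart cells were those of 3 Bag3-P209L Tg+ mice (Tg mouse 1 to Tg mouse 3) and 3 Bag3-WT mice (WT mouse 1 to WT mouse 3), each 16 months old. BAG3 is a co-chaperone of HSP70 that helps to clear damaged sarcomere proteins, and P209L exchanges one of its prolines for a leucine. Each mouse gave a cardiomyocyte and a cardiac fibroblast preparation, sequenced after oligo(dT) capture. The 18 samples, 2 per mouse for cardiomyocytes (rep1 and rep2) and 1 per mouse for fibroblasts, are called libraries here. The labels do not say whether rep1 and rep2 are separate libraries or sequencing rounds of the same library. Counts of the 2 cardiomyocyte libraries of a mouse were summed, so the mouse was the unit of replication (n = 6 by cell type, n = 3 by genotype). The labels give neither strain, nor the promoter of the transgene and the cells in which it is active, nor the isolation procedure. Levels are given in CPM, counts per 1e6 counts of the library without the 13 mitochondrial genes, scaled by TMM (trimmed mean of M values).

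The early response starts from factors that are already in the cell. Kinases of the MAPK cascades act on ternary complex factors bound beside SRF and, through further kinases, on CREB, while IKK releases NF-kappaB from its inhibitors. The first genes to be switched on encode transcription factors such as FOS, EGR1 and NR4A1. A second layer ends the response: DUSP phosphatases inactivate MAP kinases, ZFP36 promotes decay of messenger RNAs with AU-rich elements, and NFKBIA, TNFAIP3 and SOCS3 restrain NF-kappaB and cytokine signalling. Enzymatic dissociation of tissue is a known trigger of these genes, so freshly isolated cells often carry their transcripts. No undissociated heart was analysed here, and the labels do not give the time between isolation and lysis.

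Nuclear genes held 2.26 M to 7.79 M counts (M, 1e6) in cardiomyocyte columns and 11.3 M to 15.8 M in fibroblast columns, so that 3 counts stood for 0.315 to 1.17 CPM and 0.218 to 0.302 CPM. Mitochondrial genes took 51.7 to 85.5% of all counts in cardiomyocytes and 16.7 to 39.2% in fibroblasts, except in fibroblasts of WT mouse 1 with 74.2%. Bag3 was counted in every column, with 129, 165 and 203 CPM in Tg+ against 118, 124 and 343 CPM in Bag3-WT cardiomyocytes, and 230, 418 and 595 against 276, 403 and 483 CPM in fibroblasts. The labels do not say whether transgene reads were counted as Bag3. The cardiomyocyte column of Tg mouse 3, whose animal code holds the letter F, held 62 counts of Ddx3y and 172 of Eif2s3y, genes of the Y chromosome, while the fibroblast column of the same mouse held 0 of each. In CPM the cardiomyocyte column of Tg mouse 3 stood at 62.4 for Eif2s3y and 22.5 for Ddx3y. The cardiomyocyte columns with letter M stood at 17.9 to 55.8 and 30.7 to 53.5. For Uty, another Y gene, the column of Tg mouse 3 held 0 counts, against 21 to 36 in those with letter M. The other cardiomyocyte columns with letter F held 24 and 19 counts of Eif2s3y and 0 of Ddx3y. The test by cell type pairs both columns of Tg mouse 3 as the same animal, which was not tested. Results without this mouse are given where it mattered.

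Cell type markers did not all follow the labels. All 10 cardiomyocyte markers were higher in cardiomyocyte preparations (summed level 2780 to 7054 CPM against 1135 to 2812 CPM in fibroblast preparations). All 10 macrophage markers were lower there (799 to 2690 against 4110 to 13386 CPM). The summed level of 10 fibroblast markers was higher in cardiomyocyte than in fibroblast preparations in 5 of 6 mice (5311 to 18833 against 1973 to 6318 CPM), with 2 of the 10 higher and 1 lower by the test. Their median log2 fold change was −0.30, with 6 of 10 below 0, so the sum and most of the list differed in direction. The summed level of 10 endothelial markers overlapped (3430 to 8101 against 3528 to 6873 CPM), with 2 of the 10 lower and 0 higher by the test. The 8 markers of smooth muscle and pericytes were each higher in cardiomyocyte preparations (869 to 4689 against 330 to 1887 CPM), as were 5 of 6 mesothelial markers, with 1 lower (34.5 to 990 against 94.9 to 271 CPM). Of 8 lymphocyte markers 4 were lower (10.2 to 61.9 against 25.3 to 177 CPM), and of 4 neutrophil markers 1 (3.99 to 51.6 against 40.8 to 154 CPM). Over all genes tested, 24.4% were lower and 19.3% higher. The 2 fibroblast markers that were higher, and the 2 endothelial markers and 1 neutrophil marker that were lower, lay near these shares. No marker was at 0 in all columns of either preparation. Within fibroblast preparations the summed macrophage level lay above the summed fibroblast level in every mouse but Tg mouse 3 (medians 10126.5 and 5298 CPM). Within cardiomyocyte preparations the summed fibroblast level lay above the summed cardiomyocyte level in every mouse but WT mouse 2 (medians 8315 and 6022 CPM). The 2 cell types are therefore called preparations here, and cardiomyocytes or fibroblasts named alone mean these preparations. Sums over different lists do not measure shares of cells.

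Promoters (250 bases before to 50 after the start of transcription, RefSeq, GRCm38.p6) were found for 28 of the 35 genes and for 13583 genes in all. The 4 printed here belong to the AP-1 gene Fos and the phosphatase gene Dusp1, which differed less between preparations, and to the growth arrest gene Gadd45b and the NF-kappaB inhibitor gene Tnfaip3, which differed most in their groups. Capitals mark letters that match a searched motif on either strand: the CRE palindrome TGACGTCA, the AP-1 site TGANTCA, the CArG box, the NF-kappaB site, the EGR site GCGNGGGCG and, on the forward strand only, TATAAA.
Fos, chr12:85473640-85473939, plus strand: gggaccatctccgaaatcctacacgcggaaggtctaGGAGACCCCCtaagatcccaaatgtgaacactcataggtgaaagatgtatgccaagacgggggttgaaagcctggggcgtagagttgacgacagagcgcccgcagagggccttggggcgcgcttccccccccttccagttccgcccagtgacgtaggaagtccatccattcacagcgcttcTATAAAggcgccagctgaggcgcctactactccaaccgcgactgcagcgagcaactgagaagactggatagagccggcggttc
Dusp1, chr17:26508423-26508722, minus strand: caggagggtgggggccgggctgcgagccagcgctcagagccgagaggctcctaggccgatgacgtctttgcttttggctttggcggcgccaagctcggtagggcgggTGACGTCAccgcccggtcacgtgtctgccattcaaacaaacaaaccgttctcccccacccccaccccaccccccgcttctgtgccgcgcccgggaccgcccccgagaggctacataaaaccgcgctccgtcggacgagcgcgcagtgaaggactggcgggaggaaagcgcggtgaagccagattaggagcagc
Gadd45b, chr10:80929841-80930140, plus strand: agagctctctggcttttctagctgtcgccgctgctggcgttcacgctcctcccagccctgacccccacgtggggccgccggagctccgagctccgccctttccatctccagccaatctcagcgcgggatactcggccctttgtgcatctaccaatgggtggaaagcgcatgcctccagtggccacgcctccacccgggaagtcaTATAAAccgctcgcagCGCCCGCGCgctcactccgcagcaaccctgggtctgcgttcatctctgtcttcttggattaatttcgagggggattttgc
Tnfaip3, chr10:19015361-19015660, minus strand: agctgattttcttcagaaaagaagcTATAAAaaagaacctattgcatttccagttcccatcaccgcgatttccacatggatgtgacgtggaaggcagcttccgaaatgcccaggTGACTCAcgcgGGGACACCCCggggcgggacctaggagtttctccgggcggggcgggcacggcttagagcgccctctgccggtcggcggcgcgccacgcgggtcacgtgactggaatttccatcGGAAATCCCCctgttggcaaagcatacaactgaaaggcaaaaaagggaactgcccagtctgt

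The Fos window held TATAAA 33 bases before the start and an NF-kappaB match 214 bases before it. Dusp1 held TGACGTCA 143 bases before the start. Gadd45b held TATAAA 46 bases and a GCGNGGGCG match 30 bases before the start. Tnfaip3 held NF-kappaB matches at 125 and 12 bases, TGACTCA at 136 bases and TATAAA at 225 bases before the start. A gene was counted for a motif if any of its promoters held a match. Of the 28 genes, GCGNGGGCG occurred in 12 (42.9%, against 10.2% of the 13583 genes), NF-kappaB matches in 9 (32.1% against 11.8%) and TATAAA in 5 (17.9% against 7.48%). TGACGTCA occurred in 3 (10.7% against 2.95%), the CArG box in 3 (10.7% against 1.58%) and TGANTCA in 2 (7.14% against 7.53%). The nonamer TTATTTATT of AU-rich elements lay in the 3′ UTR of 8 of 35 genes (22.9%, against 7.03% of 17528 genes), namely Fos, Fosl2, Maff, Csrnp1, Dusp1, Zfp36, Tnfaip3 and Nfkbia. These letter matches describe the genes and were not tested. The genes were short in GENCODE M21, with a median span of 5412 bases against 20961 over 17533 genes and a median of 4 exons against 8.

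The first comparison asked how the early genes differed between the cardiomyocyte and fibroblast preparations of the same mice. Of 35 genes, 33 were lower in cardiomyocyte preparations and 0 higher (edgeR quasi-likelihood with mouse as block, adjusted p < 0.05, n = 6 mice), where 24.4% of the 14223 genes tested were lower and 19.3% higher. The median log2 fold change, cardiomyocyte over fibroblast preparations, was −2.86 over the 35 genes and −0.03 over all genes tested. All 6 cardiomyocyte values lay below all 6 fibroblast values for 28 of the 35, against 15.3% of all genes. The macrophage markers, with a median log2 fold change of −2.40, moved in the same direction, and their part in the result was not tested. In these bulk samples, fewer cells of a type and less RNA per cell cannot be told apart.

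**Figure D1:**
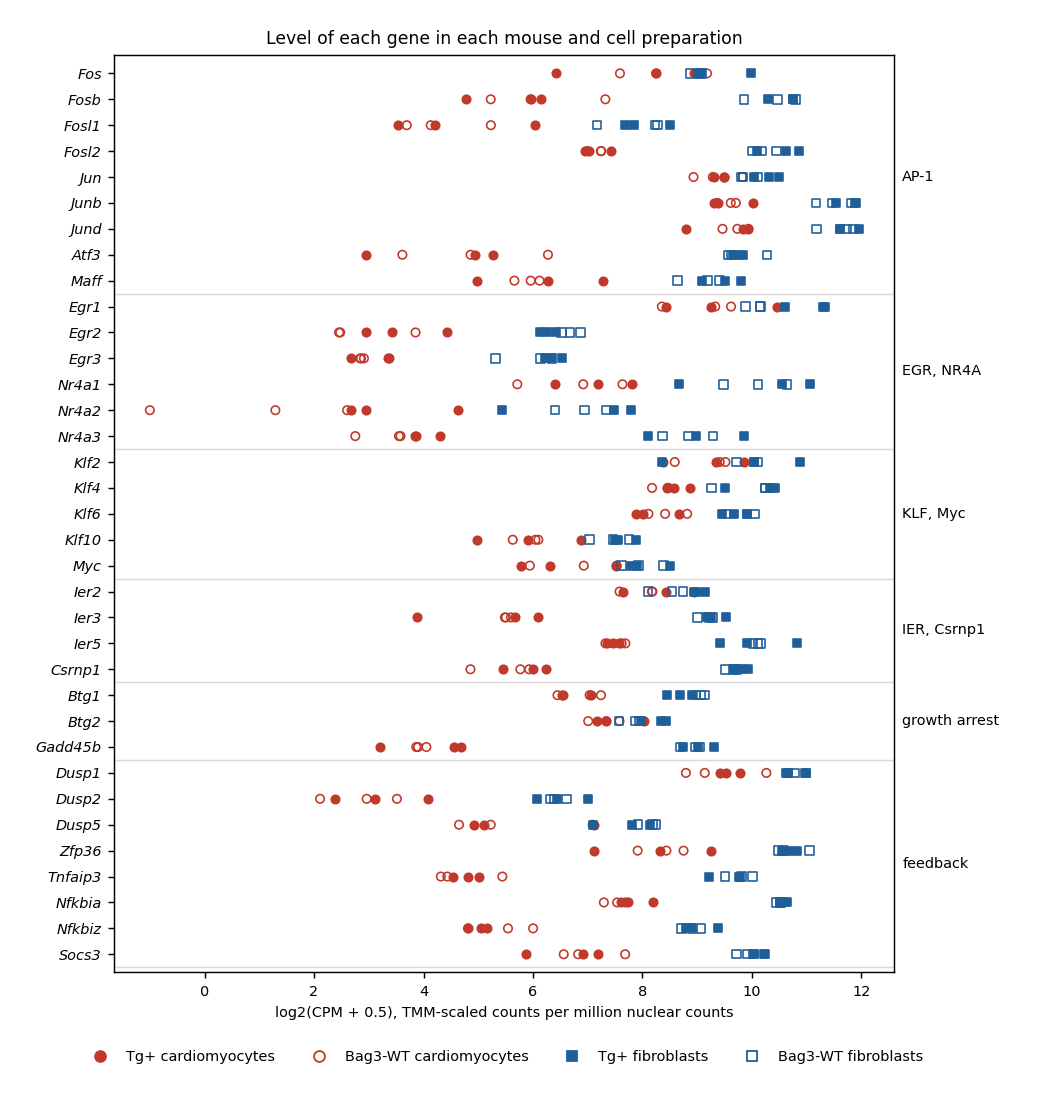
Level of each of the 35 genes in each mouse as log2(CPM + 0.5), with cardiomyocyte preparations as circles and fibroblast preparations as squares, filled for Tg+ and open for Bag3-WT. The circles lie left of the squares without overlap for 28 genes. They overlap for Fos, Jun, Egr1, Klf2, Ier2, Btg2 and Dusp5.

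The AP-1 group encodes the FOS and JUN proteins, which pair to form the AP-1 factor, the stress-induced factor ATF3 and the small MAF protein MAFF. All 9 were lower in cardiomyocyte preparations. Atf3 ranged from 7.25 to 76.9 CPM (median 29.4) in cardiomyocyte and from 760 to 1239 CPM (median 833) in fibroblast preparations. Its lowest fibroblast value lay above its highest cardiomyocyte value, and the fitted difference over the 6 mice was 34.1-fold (log2 fold change −5.09, SE 0.40, edgeR adjusted p = 3.72e-06, lower in 6 of 6 mice). Fosb, the FOS paralogue with an alternative short form, ranged from 26.8 to 160 CPM (median 61.6) against 927 to 1773 CPM (median 1565). The groups again did not overlap (−4.62, SE 0.44, edgeR adjusted p = 1.53e-05, 6 of 6 mice). The other log2 fold changes were −3.53 for Fosl1, −3.23 for Fosl2, −3.23 for Maff, −2.07 for Junb, −2.04 for Jund, −1.07 for Fos and −0.71 for Jun. Exons of Fosl1 share 1163 bases with Ccdc85b on the opposite strand and those of Junb share 173 bases with Prdx2. The use of strand in counting is not stated, so the values of Fosl1 and Junb are uncertain.

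EGR proteins are zinc finger factors that bind GC-rich sites, and NR4A proteins are orphan nuclear receptors without a classical ligand. All 6 genes were lower in cardiomyocyte preparations. Nr4a3 ranged from 6.24 to 19.2 CPM (median 12.7) in cardiomyocyte and from 275 to 923 CPM (median 481) in fibroblast preparations. Its log2 fold change of −5.32 (SE 0.32, edgeR adjusted p = 9.73e-07, 6 of 6 mice) was the most negative of the 35. Nr4a2 ranged from 0 to 24.3 CPM (median 5.73) against 43.0 to 220 CPM (median 141). It had 0 counts in the cardiomyocyte column of WT mouse 2, where 3 counts stand for 0.911 CPM, and its difference had the largest error of the set (−4.60, SE 0.80, edgeR adjusted p = 0.00158, 6 of 6 mice). The others were at −3.24 for Egr3, −3.20 for Egr2, −3.15 for Nr4a1 and −1.32 for Egr1.

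KLF proteins are zinc finger factors of endothelial, epithelial and stress responses, and MYC drives growth. In this group 4 of 5 genes were lower, with log2 fold changes of −1.60 to −1.36. Klf10, a TGF-beta inducible gene, ranged from 30.8 to 117 CPM (median 62.5) in cardiomyocyte and from 130 to 236 CPM (median 184) in fibroblast preparations (−1.60, SE 0.28, edgeR adjusted p = 9.80e-04, 6 of 6 mice). Klf4 ranged from 289 to 468 CPM (median 354) against 612 to 1372 CPM (median 1214), again without overlap (−1.50, SE 0.23, edgeR adjusted p = 4.48e-04). Klf6 was at −1.44 and Myc at −1.36. Klf2, a flow-responsive endothelial gene, did not pass, with 330 to 927 CPM (median 664) against 329 to 1882 CPM (median 1047) (−0.67, SE 0.26, edgeR adjusted p = 0.0554, lower in 5 of 6 mice). In Tg mouse 3 its levels were 330 CPM in cardiomyocyte and 329 CPM in fibroblast preparations.

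Of the IER and CSRNP genes, 3 of 4 were lower. Csrnp1, an AXIN-induced nuclear protein gene, ranged from 28.5 to 75.1 CPM (median 57.3) in cardiomyocyte and from 732 to 971 CPM (median 832) in fibroblast preparations. The groups did not overlap (−4.02, SE 0.24, edgeR adjusted p = 9.46e-07, 6 of 6 mice). Its SD on the log2 scale, pooled within genotype, was 0.50 in cardiomyocyte and 0.11 in fibroblast preparations. Ier3, an early gene that modulates cell survival, ranged from 14.1 to 67.6 CPM (median 46.5) against 513 to 737 CPM (median 605), also without overlap (−3.84, SE 0.33, edgeR adjusted p = 6.60e-06, 6 of 6 mice). Ier5 was at −2.57. Ier2, a small nuclear protein gene of the same family as Ier5, did not pass, with 191 to 489 CPM (median 289) against 274 to 562 CPM (median 458) (−0.58, SE 0.22, edgeR adjusted p = 0.0547, lower in 5 of 6 mice).

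The growth arrest genes encode antiproliferative BTG proteins and a stress sensor of the GADD45 family, and all 3 were lower. Gadd45b ranged from 8.70 to 25.2 CPM (median 15.3) in cardiomyocyte and from 413 to 635 CPM (median 507) in fibroblast preparations. The highest cardiomyocyte value was below the lowest fibroblast value, and the fitted difference was 30.8-fold (−4.94, SE 0.24, edgeR adjusted p = 2.89e-07, 6 of 6 mice). Btg1 ranged from 86.8 to 151 CPM (median 112) against 350 to 563 CPM (median 492) (−2.07, SE 0.20, edgeR adjusted p = 1.46e-05, 6 of 6 mice), and Btg2 was at −0.61.

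All 8 feedback genes were lower. Tnfaip3, a ubiquitin-editing inhibitor of NF-kappaB, ranged from 19.4 to 42.9 CPM (median 25.3) in cardiomyocyte and from 595 to 1029 CPM (median 874) in fibroblast preparations. The fitted difference was 30.7-fold, without overlap (−4.94, SE 0.24, edgeR adjusted p = 2.89e-07, 6 of 6 mice). Nfkbiz, a nuclear member of the inhibitor family, ranged from 27.6 to 63.6 CPM (median 34.0) against 418 to 669 CPM (median 476) (−3.74, SE 0.25, edgeR adjusted p = 1.56e-06, 6 of 6 mice). The MAP kinase phosphatase genes were at −3.49 for Dusp2, −2.27 for Dusp5 and −1.30 for Dusp1. Socs3, an inhibitor of JAK signalling, was at −3.18, Nfkbia at −2.86 and Zfp36 at −2.39. Dusp5 was lower in 5 of 6 mice, with 138 CPM in cardiomyocyte and 136 CPM in fibroblast preparations of Tg mouse 3.

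**Figure D2:**
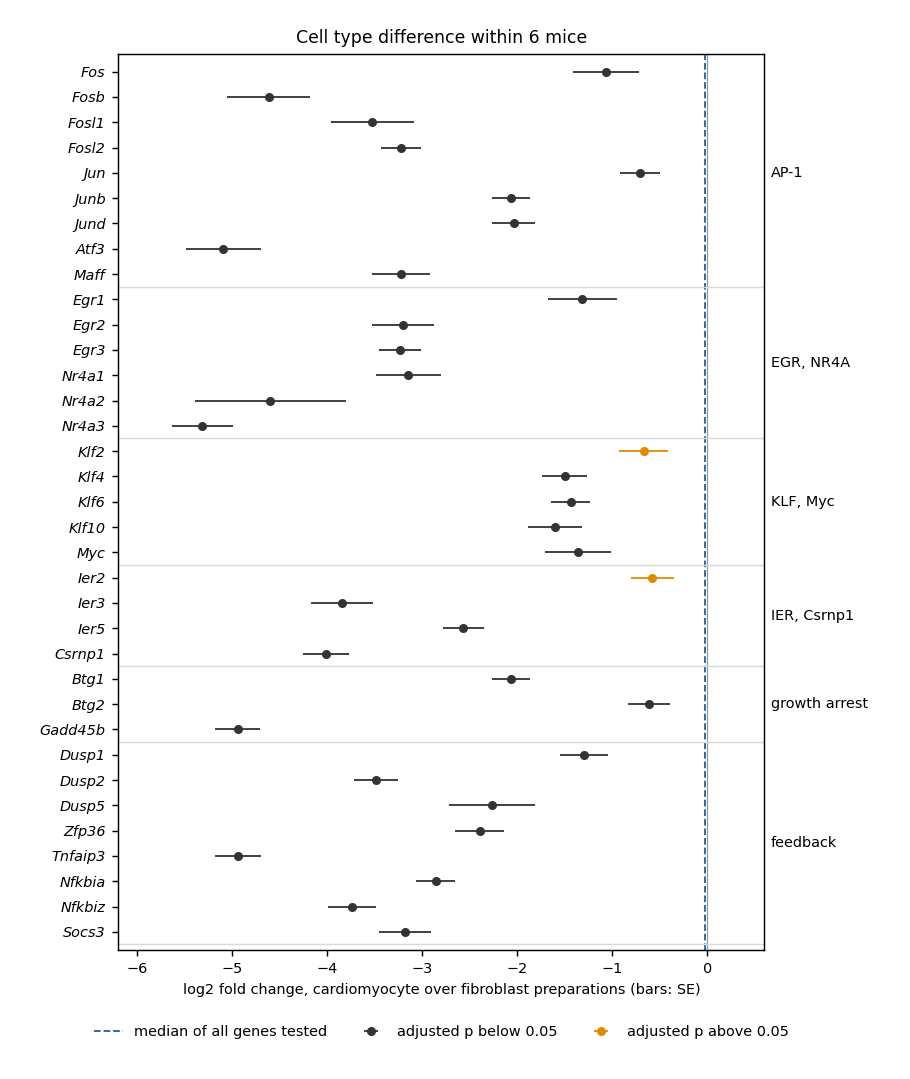
Log2 fold change of each gene, cardiomyocyte over fibroblast preparations of the same 6 mice, with bars of SE and a dashed line at the median of all genes tested (−0.03). All 35 points lie below 0, from −5.32 for Nr4a3 to −0.58 for Ier2, and the 2 points in orange, Klf2 and Ier2, did not pass the test.

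The smallest differences depended on scaling and on single mice. Scaling by nuclear library size alone, without TMM, moved the median of all genes from −0.03 to 0.39 with 33.5% of them now higher and 15.8% lower. Under it 29 of the 35 genes were lower with a median of −2.45, and Fos (edgeR adjusted p = 0.201), Jun (0.327), Egr1 (0.0940) and Btg2 (0.553) no longer passed. Fos also missed the threshold without Tg mouse 1, Tg mouse 3 or WT mouse 3 (edgeR adjusted p = 0.0851, 0.0682 and 0.0858) and Jun without Tg mouse 1 or WT mouse 3 (0.0579 and 0.0679). Btg2 missed it without Tg mouse 1, Tg mouse 3, WT mouse 2 or WT mouse 3 (0.122, 0.106, 0.0833 and 0.12). Klf2 passed without Tg mouse 3 (edgeR adjusted p = 0.0313) and Ier2 without WT mouse 1 (0.0329). Without Tg mouse 3, 32 of the 35 genes were lower, with a median of −2.78. The direction of all 35 genes was the same under each of the 15 alternatives tried.

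Beside Klf2 and Dusp5 in Tg mouse 3, 3 genes were not lower in every mouse, and their values were picked after they were seen. In WT mouse 1, Fos was at 580 CPM in cardiomyocyte and 541 CPM in fibroblast preparations, and Ier2 at 288 and 274 CPM. Btg2 was at 260 and 250 CPM in Tg mouse 2 and at 191 and 190 CPM in WT mouse 1.

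Genes that share a family or a name differed unequally between preparations. The ratio of 2 genes within a column does not depend on library scaling. In this way 16 pairs of such genes were described, chosen with values known and therefore not tested. The ratio of Fosb to Fos counts was 0.144 to 0.315 in cardiomyocyte and 1.69 to 3.37 in fibroblast preparations. Ier3 over Ier2 was 0.0709 to 0.235 against 1.09 to 2.19, and Nr4a3 over Nr4a1 was 0.0315 to 0.229 against 0.338 to 0.677. In each of these pairs every cardiomyocyte ratio lay below every fibroblast ratio. The same held for Dusp2 over Dusp1 (0.00537 to 0.0240 against 0.0390 to 0.0788), Junb over Jun (0.724 to 1.71 against 2.34 to 4.02) and Egr3 over Egr1 (0.00414 to 0.0285 against 0.0295 to 0.0711). It also held for Jund over Jun, Fosl2 over Fos, Egr2 over Egr1 and Ier5 over Ier2. Ratios overlapped for Fosl1 over Fos, Nr4a2 over Nr4a1, Dusp5 over Dusp1, Klf6 and Klf4 over Klf2, and Btg1 over Btg2. The share of gene pairs in general without overlap was not computed.

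**Figure D3:**
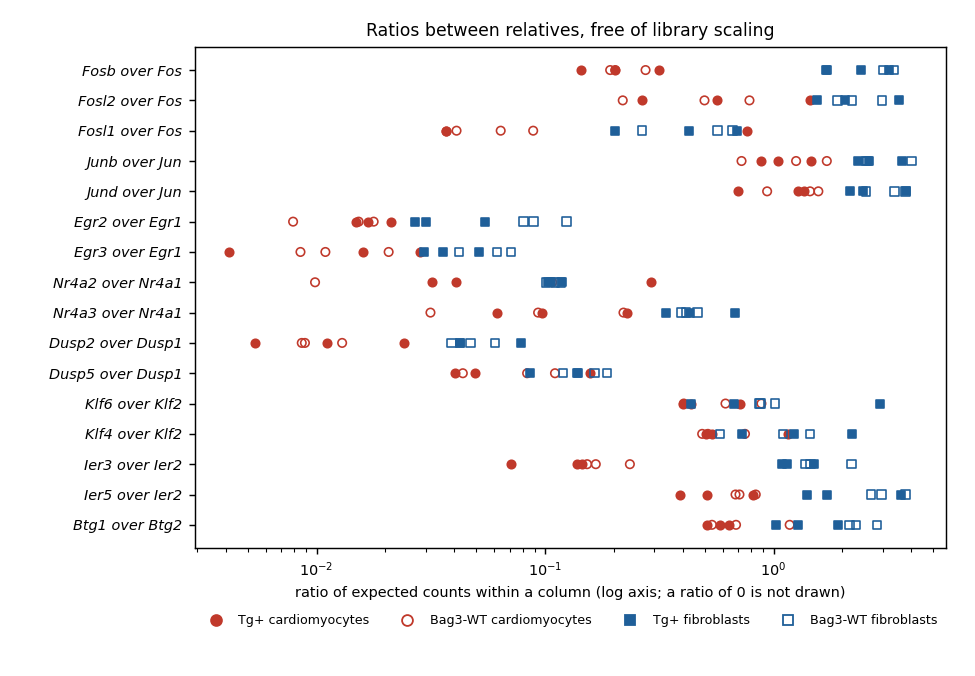
Ratios of expected counts between 16 pairs of genes with a shared family or name within each column, on a log axis. Cardiomyocyte preparations are circles and fibroblast preparations squares, filled for Tg+ and open for Bag3-WT. Fosb over Fos lies at 0.144 to 0.315 in cardiomyocyte and 1.69 to 3.37 in fibroblast preparations. Nr4a2 over Nr4a1 is 0 in cardiomyocytes of WT mouse 2 and is not drawn there.

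Levels between genes were compared per kilobase of exon. In cardiomyocyte preparations the highest of the set were Jund with 487, Klf2 with 334, Junb with 334, Dusp1 with 228 and Jun with 214 CPM per kb. In fibroblast preparations they were Jund with 1965, Junb with 1402, Nfkbia with 922, Klf2 with 564 and Ier3 with 539 CPM per kb. Ier3 was thus among the highest in fibroblast preparations and stood at 39.7 CPM per kb, rank 17 of 35, in cardiomyocyte preparations. Egr3 was the lowest in both, with 1.73 and 16.5 CPM per kb. The median gene of the set stood at percentile 91.2 of 13491 genes in cardiomyocyte and 98.4 in fibroblast preparations.

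Genes around the set were described by lists. Of 58 other early and feedback genes, 2 were higher and 42 lower in cardiomyocyte preparations (median −2.20). Areg, an EGF receptor ligand gene, was at 0.312 ± 0.338 against 119 ± 38.8 CPM (mean ± SD, n = 6, log2 fold change −8.62, SE 0.43) and the kinase gene Pim1 at 58.7 ± 10.4 against 2085 ± 955 CPM (−5.05, SE 0.25). The matricellular gene Ctgf was higher (2.5, SE 0.66), as was the receptor signalling inhibitor gene Spry1 (0.81, SE 0.20). Of 12 upstream transcription factors, 1 was higher and 5 lower (median −0.25), among them the NF-kappaB subunit gene Nfkb1 (−3.25, SE 0.21) and the CREB coactivator gene Crtc2 (−3.18, SE 0.48). The ternary complex factor gene Elk3 was higher by the test (0.72, SE 0.23, edgeR adjusted p = 0.0250), and missed the threshold when any mouse but Tg mouse 3 was left out (0.0569 to 0.0882). Of 16 upstream kinases, 1 was higher, Mapk9 (0.98, SE 0.17), and 4 were lower (median −0.09), a share near the 24.4% of all genes. Among those lower, the MAP kinase kinase gene Map2k3 was at −2.85 (SE 0.22) and the p38 substrate kinase gene Mapkapk2 at −2.65 (SE 0.21).

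Of 10 heat shock genes often raised by dissociation, 6 were lower and 0 higher in cardiomyocyte preparations (median −0.70). The shares over all genes tested were 24.4% and 19.3%. The inducible HSP70 gene Hspa1a was at 231 ± 242 against 676 ± 235 CPM (mean ± SD, n = 6, −1.89, SE 0.32, edgeR adjusted p = 7.49e-04). Its neighbour Hspa1b was at 376 ± 326 against 692 ± 320 CPM (−1.30, SE 0.43, edgeR adjusted p = 0.0318). The Hspa1b call was lost without Tg mouse 1, Tg mouse 2, WT mouse 2 or WT mouse 3 (0.0869, 0.0915, 0.0903 and 0.0845). Hspa1a and Hspa1b are near-identical copies whose reads the authors' counting could split, so the values of both are uncertain.

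Levels varied more between cardiomyocyte than between fibroblast columns. The SD of log2(CPM + 0.5) between mice was pooled within genotype. Its median was 0.58 in cardiomyocyte and 0.29 in fibroblast preparations, and it was larger in cardiomyocytes for 28 of 35 genes. Over all genes tested the medians were 0.60 and 0.30, and 82.9% of genes had the larger SD in cardiomyocytes.

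Mice differed in which early genes were high. In cardiomyocyte preparations, Tg mouse 3 was the lowest of 6 mice for 13 genes (37.1%, near the 35.3% of all genes). Among them were Fos with 85.2 CPM, Atf3 with 7.25 and Socs3 with 58.4. The same mouse was the highest for 7 (20%, below the 26.7% of all genes), among them Fosl1 with 64.9, Maff with 154 and Nr4a2 with 24.3 CPM. Its column also had the lowest summed macrophage level (799 CPM) and the highest summed smooth muscle level (4689 CPM) of the 6, and the part of these in its early gene levels was not tested. WT mouse 1 was the highest for 10 genes (28.6%, against 16.2% of all genes), with 580 CPM of Fos, 160 of Fosb and 76.9 of Atf3. Its column had the highest summed fibroblast level (18833 CPM), the lowest summed smooth muscle level (869 CPM) and the highest mitochondrial share (85.5%) of the 6, and their part was not tested. WT mouse 3 was the lowest for 12 (34.3%, against 10.9%), such as Egr1 with 327 and Dusp1 with 443 CPM.

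In fibroblast preparations, Tg mouse 2 was the highest for 12 genes (34.3%, against 13.8% of all genes) and the lowest for 0. It had 2148 CPM of Nr4a1, 923 of Nr4a3 and 1882 of Klf2. Tg mouse 3 was at the other end for the same 3 genes, with 406, 275 and 329 CPM. It was the lowest for 10 in all (28.6%, below the 33.6% of all genes). It was nonetheless the highest for Egr1, with 2576 CPM. WT mouse 1 was the lowest for 14 genes (40%, against 18.3%), such as Fosb with 927 and Junb with 2309 CPM, and the highest for Atf3 with 1239 and Tnfaip3 with 1029 CPM. Fibroblasts of WT mouse 1 also had the highest mitochondrial share (74.2%) and the highest summed macrophage level (13386 CPM), and those of Tg mouse 3 the lowest (4110 CPM). The part of these in the result was not tested.

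**Figure D4:**
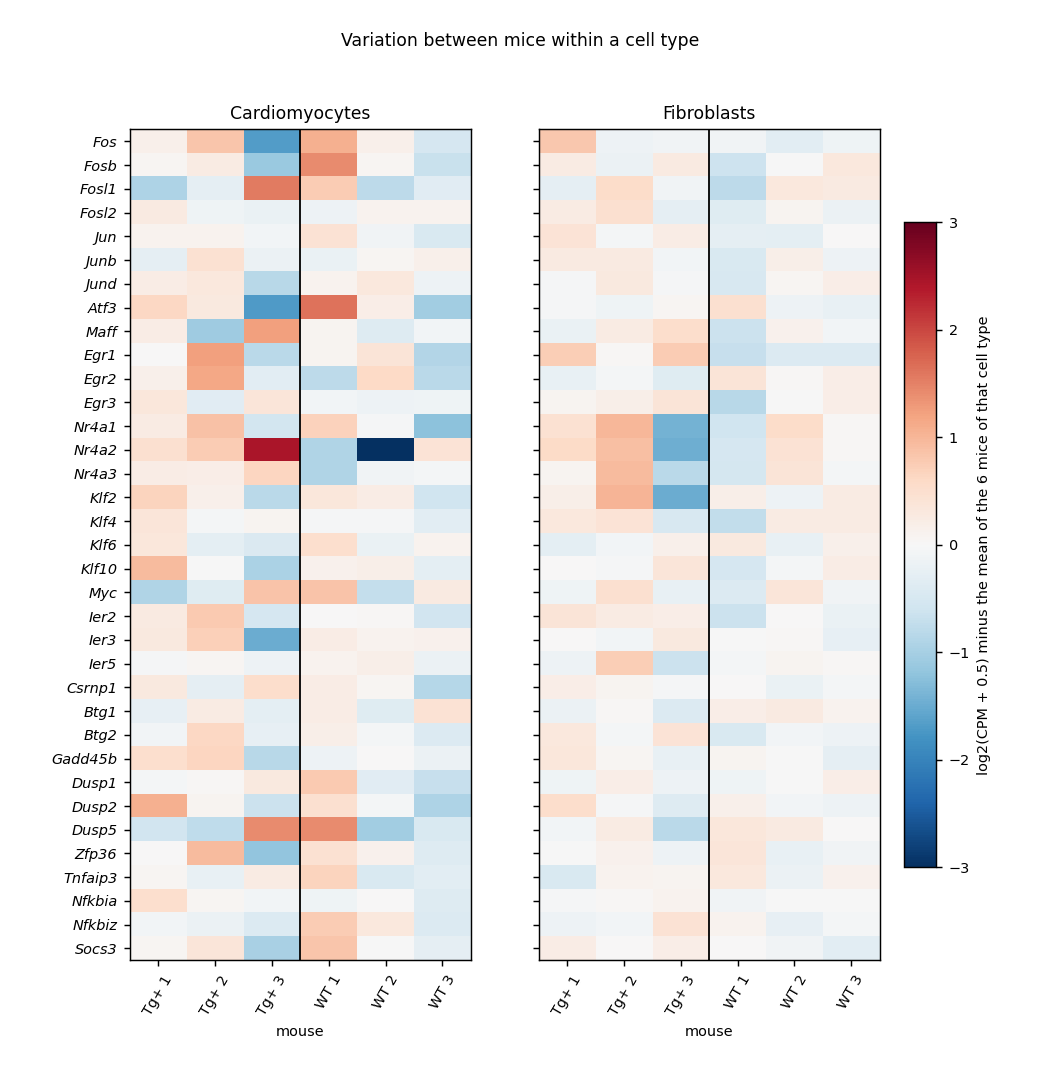
Deviation of each gene in each mouse from the mean of the 6 mice of that preparation, as log2(CPM + 0.5), from blue (lower) to red (higher), with the colour scale ending at −3 and 3. In cardiomyocyte preparations of Tg mouse 3, Fos, Atf3 and Ier3 are low while Fosl1, Dusp5 and Nr4a2 are high. In fibroblast preparations of Tg mouse 3, the NR4A genes and Klf2 are low, and the same genes are high in Tg mouse 2.

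The next question was whether genotype altered the early genes of cardiomyocyte preparations. None of the 35 passed (edgeR, 0 at adjusted p < 0.05 and 0 at an unadjusted p < 0.05). Of the 12114 genes tested 0% passed, and 0.702% were at an unadjusted p < 0.05, a share below that threshold itself. With 3 mice per genotype, the absence of calls in this and the later genotype tests does not show that levels were equal. DESeq2 called 3 genes and limma voom 0, with 0 of the 35 in either. The median log2 fold change, Tg+ over Bag3-WT, was 0.07 over the 35 genes (22 above and 13 below 0) and 0.03 over all genes. It was 0.33 without WT mouse 1 and −0.03 without WT mouse 3.

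The 3 genes with the lowest p did not pass. Nr4a2 was at 5.88, 7.23 and 24.3 CPM in Tg+ against 1.95, 0 and 5.58 CPM in Bag3-WT cardiomyocytes, from 37 to 67 and 0 to 19 counts. The lowest Tg+ value lay just above the highest Bag3-WT value (log2 fold change 2.27, SE 1.13, edgeR adjusted p = 1.00). The value was 1.34 without Tg mouse 3, whose cardiomyocyte column held Ddx3y counts despite the letter F, and 3.71 without WT mouse 3. Nr4a3 was at 14.1, 13.9 and 19.2 against 6.24, 11.2 and 11.5 CPM, also without overlap (0.69, SE 0.44, edgeR adjusted p = 1.00). Nfkbiz was at 35.2, 32.8 and 27.6 against 63.6, 46.1 and 27.6 CPM, and the groups overlapped (−0.52, SE 0.37, edgeR adjusted p = 1.00). Nr4a2 and Nr4a3 were the 2 of 35 genes whose genotypes did not overlap, against 5.04% of all genes. The summed level of the cardiomyocyte markers was 2780 to 5830 CPM in Tg+ and 6213 to 7054 CPM in Bag3-WT cardiomyocytes without overlap, and its part in these values was not tested.

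The same question was asked of the fibroblast preparations. None of the 35 passed (edgeR, 0 at adjusted p < 0.05), nor did any of the 13858 genes tested (0%). At an unadjusted p < 0.05 there were 3 of the 35, Egr1, Egr2 and Ier2, and 5.02% of all genes. DESeq2 called 6 genes and limma voom 0, with 0 of the 35 in either. The median log2 fold change was 0.15 over the 35 (27 above and 8 below 0) and −0.05 over all genes. It was 0.28 without Tg mouse 3 and 0.07 without Tg mouse 2.

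Egr1 was at 2520, 1550 and 2576 CPM in Tg+ against 941, 1135 and 1139 CPM in Bag3-WT fibroblasts. All 3 Tg+ values lay above all 3 Bag3-WT values (log2 fold change 1.05, SE 0.28, edgeR adjusted p = 0.769, and 0.0890 to 1 over the alternatives). Egr2, a close relative, lay the other way, at 75.7, 84.8 and 69.2 against 117, 91.4 and 101 CPM (−0.43, SE 0.17, edgeR adjusted p = 0.769). The ratio of Egr2 to Egr1 counts was accordingly 0.0269 to 0.0547 in Tg+ and 0.0805 to 0.124 in Bag3-WT fibroblasts, a description that was not tested. Ier2 was at 562, 502 and 488 against 274, 428 and 371 CPM, higher in all 3 Tg+ mice (0.53, SE 0.22, edgeR adjusted p = 0.769). Genotypes did not overlap for 6 of the 35 genes, Egr1, Egr2, Ier2, Btg1, Btg2 and Socs3, against 13.1% of all genes. The summed macrophage level was 4110 to 9884 CPM in Tg+ and 10370 to 13386 CPM in Bag3-WT fibroblasts, and the summed endothelial level 5166 to 6873 and 3528 to 4742 CPM. Both lists were without overlap between genotypes, with 0 of 10 markers of each past the test, and their part in these values was not tested. The letter M was held by 1 of 3 Tg+ and 2 of 3 Bag3-WT codes, so letter and genotype are partly confounded.

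**Figure D5:**
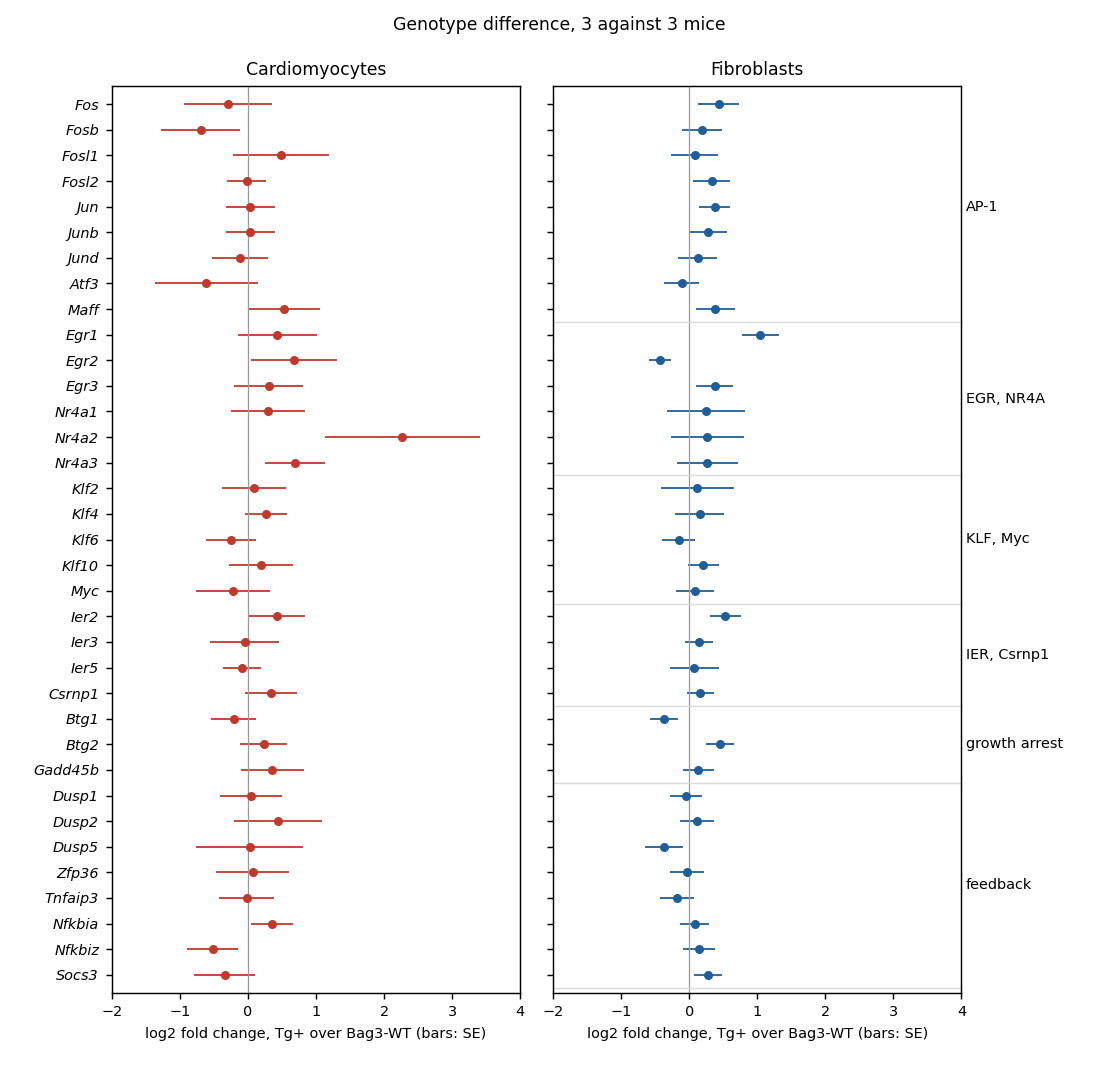
Log2 fold change of each gene, Tg+ over Bag3-WT, in cardiomyocyte (left) and fibroblast (right) preparations, 3 against 3 mice, with bars of SE. No gene passed the test. Nr4a2 in cardiomyocytes (2.27) and Egr1 in fibroblasts (1.05) lie farthest from 0 in their panels.

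Whether genotype acted differently on the 2 preparations was tested as an interaction. None of the 35 genes passed (edgeR, 0 at adjusted p < 0.05 and 0 at an unadjusted p < 0.05), against 0% and 0.97% of the 14223 genes tested. DESeq2 called 1 gene and limma voom 0, with 0 of the 35 in either. The median difference, cardiomyocyte minus fibroblast log2 fold change, was −0.11 over the 35 and 0.06 over all genes. The 3 with the lowest p were Egr2 (1.11, SE 0.57), Nr4a2 (2.07, SE 1.48) and Socs3 (−0.63, SE 0.51), each with an edgeR adjusted p = 1.00.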

How the data were processed

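Expected counts (estimated read counts per gene, 44.7% of the values not whole) were deposited by the authors for 18 libraries. Per the submitters' processing notes, kallisto 0.44.0, DESeq2 1.18.1, R 3.4.4 and GRCm38.p6 were named, with no role or order. A deposited normalized table was not used. Counts were rounded after the 2 cardiomyocyte libraries of a mouse were summed (12 columns, 6 mice). Every one of the 18 value columns was mapped to its sample. The 13 mitochondrial genes were left out before library sizes, and TMM factors came from all 12 columns. Tests used edgeR 4.0.16 in R 4.3.3 (filterByExpr, robust glmQLFit, glmQLFTest, two-sided, Benjamini-Hochberg over all genes tested, threshold 0.05). A standard error is the log2 fold change divided by the square root of F. Cell type was tested with mouse as block, genotype in each preparation alone, and the interaction in the paired layout. The scripts were checked on simulated data. DESeq2 1.42.0 and limma 3.58.1 served as alternatives, beside other scalings, filters, single repeats and left-out mice.

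The genes, lists and comparisons were chosen with earlier results of these data known. By cell type, values per mouse were given for the 2 genes of each group with the largest change and for those that did not pass. By genotype and interaction, the 3 genes with the lowest p were named. Of each further list, the 2 passing genes per direction with the largest change were named. Older symbols were used for 4 list genes (Mkl1, Mkl2, Cyr61 and Ctgf). Gene models came from GENCODE M21 on GRCm38. The NF-kappaB motif allowed variable positions, as did the CArG box. The repeat number (rep1, rep2) pairs no mice. As a check, deviations from group means were correlated between Tg+ and Bag3-WT cardiomyocyte libraries of equal number, with a mean r of 0.0166 (−0.413 to 0.380, 18 pairs of libraries).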

Additional observations from a re-analysis of the deposited data

Results flagged for a closer look

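In 2 of 35 genes, 1 of the 6 within-mouse differences (cardiomyocyte minus fibroblast preparations, log2(CPM + 0.5)) stood apart from the other 5 by more than Dixon's 95% critical value for the gap over the range. Chance marks about 1 in 20 groups. Fosl2, an AP-1 gene, was at −3.84 in Tg mouse 2, where the nearest other mouse was at −3.20 and the far end at −2.94. Ier3, a survival gene, was at −5.65 in Tg mouse 3, with the nearest at −3.79 and the far end at −3.08. Both genes were lower in cardiomyocyte preparations in 6 of 6 mice.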

How the results depend on the processing

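By cell type, 29 to 35 of the 35 genes were lower and 0 higher over 15 alternatives. The median log2 fold change moved beyond the spread between mice only under scaling by nuclear library size, to −2.45. That scaling turned the calls over all genes from 2742 higher and 3467 lower to 4767 and 2252. Without the mouse block, 32 of the 35 genes were lower, and Fos (edgeR adjusted p = 0.0750) and Hspa1b (0.213) did not pass. DESeq2 and limma voom called Klf2 (0.0216 and 0.0334) and Ier2 (0.0237 and 0.0332). Without a filter on low counts, Btg2 missed the threshold (edgeR adjusted p = 0.0522). Under nuclear library size Hspa1b missed it (0.0742). With rep1 libraries alone Ier2 passed (0.0390), and with rep2 alone Klf2 (0.0473).

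By genotype, 0 of the 35 passed in either preparation and 0 in the interaction, under every alternative that was run. The fibroblast median was 0.269 under nuclear library size and 0.274 with the letter of the animal code as a term. Leaving out 1 mouse gave 0.0747 (Tg mouse 2) to 0.276 (Tg mouse 3). With the repeat number as a replicate block over 12 cardiomyocyte libraries (limma voom, 34 of the 35 genes tested), 0 passed and the median was 0.0614. No direction of a gene called by cell type was reversed under any of these. In cardiomyocytes 3 counts stood for up to 1.17 CPM, which limits the values of genes with few counts such as Nr4a2, Nr4a3, Egr2, Egr3 and Dusp2. Leaving out a mouse left 2 in its group, and the spread was pooled over the rest.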

Other observations

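The rep1 and rep2 samples of cardiomyocyte preparations gave similar early gene levels. They may be sequencing rounds of the same library, so the agreement between separately made libraries was not tested. The absolute difference between rep2 and rep1 of a mouse, as a median over the 35 genes on the log2 scale, was 0.0989 to 0.207 in the 6 mice, and 25 to 33 genes lay within 0.5. The largest differences were 5.14 for Gadd45b in WT mouse 3 and 4.41 for Egr3 in Tg mouse 2, where 1 of the repeats had 0 counts. These were chosen after their values were seen. Fits on rep1 or rep2 libraries alone each called 34 of the 35 genes lower in cardiomyocyte preparations.

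The lists around the set held no gene past the test by genotype (edgeR, adjusted p < 0.05). Of the other early genes, 0 of 55 in cardiomyocytes and 4 of 58 in fibroblasts were at an unadjusted p < 0.05, with medians of −0.01 and 0.20. Of the heat shock genes it was 0 of 10 and 2 of 10, with medians of 0.11 and −0.09. At that threshold the shares over all genes tested were 0.702% in cardiomyocytes and 5.02% in fibroblasts. DESeq2 and limma voom were read for the 35 genes and for all genes together, not for these lists.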
